A study of Mus musculus with 24 samples.

Results

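The comparison described here is the loss of Msh3 in mice that carry the expanded huntingtin allele. It sets 6 libraries labelled as crossed Q140 and Msh3-/- animals, called Q140 Msh3-/- below, against 6 libraries of Q140 animals, out of 24 in the series, and was chosen by these labels alone. All came from striatal nuclei of C57BL/6 mice aged 12 months, sorted for the neuronal protein NeuN and assayed by ATAC-seq, with 3 females and 3 males per genotype. Q140 Msh3-/- animals carried 1 knock-in Htt allele with an expanded CAG repeat and no working copy of Msh3, while Q140 animals carried the same Htt allele with Msh3 present. The other 12 libraries, 6 Msh3-/- and 6 WT, carry no knock-in allele by their labels and are used below for the same Msh3 comparison without the expanded allele and to give the WT level at named peaks. The sources used here do not give the CAG length in each animal, how the Msh3 allele was made or which cells lack Msh3. Libraries are named by sex and number, such as Q140 F2.

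ATAC-seq reads the DNA that a transposase can reach, so a peak of counts marks an open stretch such as a promoter or an enhancer. Msh3 is a DNA mismatch repair protein that recognises small DNA loops, and in the striatum of huntingtin knock-in mice it is needed for the CAG repeat to keep lengthening in somatic cells. Most striatal neurons are spiny projection neurons, which lose the expression of many of their identity genes in Huntington's disease models, while genes that the Polycomb complexes keep silent in adult neurons can become active. The question the comparison addresses is what the striatal neuron's open chromatin looks like when the expanded allele is present but Msh3 is not.

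Peak totals were 5823567 to 11736557 counts per Q140 Msh3-/- library and 6848049 to 11367014 counts per Q140 library, and a tested peak held a median of 29 counts per library. A pair of libraries stood apart. The X chromosome held 1.46% of counts in Q140 F2, labelled female, where the remaining females of the series had 1.72% to 1.93% and males 1.46% to 1.58%. Its Y share was the lowest of the series at 0.0534%, with males from 0.0789% (Q140 M3) to 0.224% (Q140 M1). Females reached 0.233% (Msh3-/- F1), so the Y share did not separate the labelled sexes. Whether the sex label of Q140 F2 is right was not tested. In Q140 Msh3-/- M1 a few peaks were very deep, with 12.7% of its counts in its top 10 peaks, while the share was 3.33% to 4.74% for the rest of that genotype. Results below are given with both kept, and the main counts also without both. The Rbfox3 promoter (Rbfox3 encodes NeuN) held 8.68 to 17.4 CPM in Q140 Msh3-/- libraries and 11.7 to 17.9 CPM in Q140 libraries, where CPM, as used throughout, scales a peak's counts to its library's total after scaling. Promoters of the projection neuron genes Drd1 and Ppp1r1b were open in every library, with medians of 31.9 and 77.0 CPM in Q140 Msh3-/- and 31.6 and 68.3 CPM in Q140.

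Loss of Msh3 in Q140 animals went with 773 changed peaks of 146155 tested, or 0.529%. In Q140 Msh3-/- libraries 453 peaks were higher (0.31% of those tested) and 320 were lower (0.219%), at an adjusted p under 0.05 by edgeR's quasi-likelihood test with Benjamini-Hochberg adjustment over all tested peaks. The changes were moderate in size. Higher peaks differed by 0.48 to 1.49 on the log2 scale with a median of 0.78, lower peaks by 0.47 to 2.16 with a median of 0.81, and 67 in each direction passed a 2-fold difference. All 12 libraries separated by genotype, with no overlap, at 290 higher peaks and at 175 lower ones. Over all tested peaks, 0.641% were higher and 0.377% were lower without overlap. In sorted bulk nuclei, fewer nuclei of a type and less open chromatin per nucleus cannot be told apart.

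How many peaks passed depended on single libraries. The 773 became 490, 381 and 492 without Q140 M1, M2 or M3, and 385, 383 and 378 without Q140 Msh3-/- F2, M1 or M2. The other 6 libraries, left out one at a time, gave 516 to 951. Higher peaks numbered 235, 183 and 297 without Q140 M1, M2 or M3, and 259, 242, 715, 234 and 193 without Q140 Msh3-/- F1, F2, F3, M1 or M2. Lower peaks numbered 171, 170, 198 and 195 without Q140 F2, F3, M2 or M3, and 143, 149 and 185 without Q140 Msh3-/- F2, M1 or M2. Without both Q140 F2 and Q140 Msh3-/- M1, 199 peaks passed, 127 higher and 72 lower, and 197 of them were among the 773.

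The changed peaks lay mostly away from promoters. Intergenic peaks made up 422 of the 773 (239 higher, 183 lower) and 37.1% of the tested peaks, introns held 188 higher and 120 lower, and promoters held 6 higher and 10 lower although 6.96% of tested peaks were promoters. Called were 0.778% of intergenic, 0.446% of intronic and 0.157% of promoter peaks. The 773 sat at a median of 52.5 kb (higher) and 61.8 kb (lower) from the nearest annotated start, against 28.8 kb for all tested peaks. They were also wider, with medians of 606 and 532 bases against 397, and deeper, with 5.78 and 5.01 CPM against 3.41, and the part of width and depth in the call was not tested. Peaks annotated to CpG islands were called lower 12 times and higher 0 times among 2651, or 0.453%. Over all tested peaks 0.529% were called, 0.219% of them lower and 0.31% higher as shares of those tested.

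Among the gene lists, that of developmental regulators taken as Polycomb targets had the most lower calls. The lists were chosen with earlier results of these data known, so this rank is a description. Polycomb marks were not measured here. The list held, among others, transcription factor genes of the Hox, Pax, Tbx and Onecut families and the CDK inhibitor gene Cdkn2b. It had 992 tested peaks at 156 genes. Of these, 29 fell and 2 rose in Q140 Msh3-/- libraries, 3.12% against 0.529% of all tested peaks, and 22 genes held a call. The median over the 992 peaks was -0.11 against 0.00 over all tested peaks, and 686 had a negative sign. Left out one at a time, libraries gave 22 to 30 lower calls, and without both that stood apart there were 15. Their 71 promoter peaks gave 5 lower and 0 higher, with a median of -0.32 against -0.03 over all promoter peaks. The 5 became 2 or 3 without any one of Q140 F1, F2, M1 or M2 or of Q140 Msh3-/- F2, F3, M1 or M2, and 1 without both that stood apart. In the same fit, Msh3-/- against WT had a median of 0.00 over the same 992 peaks. The 2 that rose lay near Gbx1 and Atoh1.

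Hoxc8, a homeobox gene that patterns the body axis, had an intergenic peak 9.07 kb from its start (chromosome 15, 102999076 to 103000139; GRCm38 here and below). It ran from 3.13 to 4.87 CPM (median 4.43) in Q140 Msh3-/- libraries and from 9.23 to 13.6 CPM (median 11.4) in Q140 libraries, with no overlap. The difference was -1.41 ± 0.15 (log2 ± SE, edgeR adjusted p = 8.02e-08). WT libraries ran from 3.88 to 6.03 CPM (median 4.93), so the Q140 libraries were the high group and the Q140 Msh3-/- libraries lay in the WT range but for the lowest of them. All 12 tested peaks of the stretch of 137 kb that runs from there past Hoxc4 had a negative sign, at a median of -0.26, and 3 of them were called.

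The Onecut1 promoter fell furthest among called promoter peaks. Onecut1 encodes a cut-homeodomain factor of liver, pancreas and neuron development, and its promoter peak (chromosome 9, 74861498 to 74862162) ran from 2.71 to 5.64 CPM (median 4.33) in Q140 Msh3-/- and from 9.92 to 13.8 CPM (median 11.8) in Q140 libraries. Msh3-/- and WT libraries held medians of 4.40 and 4.03 CPM. The log2 difference in Q140 animals was -1.42 ± 0.16 (log2 ± SE, edgeR adjusted p = 2.51e-07). All 9 tested peaks of the gene had a negative sign, and 4 were called, among them an intronic CpG-island peak 1.57 kb from the start at -1.80 ± 0.33. That peak ran from 0.506 to 1.74 CPM (median 0.987) in Q140 Msh3-/- and from 2.87 to 6.02 CPM (median 3.63) in Q140 libraries.

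Pax2, a paired-box factor of kidney, eye and midbrain development, had 5 called peaks of 13, all lower, spread over 85.2 kb of chromosome 19. Of its 13 peaks 12 had a negative sign, and the median was -0.62. The called peak nearest the start (44756870 to 44757074) ran from 0.581 to 1.43 CPM (median 0.984) in Q140 Msh3-/- and from 1.72 to 3.90 CPM (median 2.43) in Q140 libraries, a difference of -1.38 ± 0.31. The farthest, at -74.4 kb from the start, ran from 2.36 to 5.04 CPM (median 3.72) in Q140 Msh3-/- and from 5.31 to 9.03 CPM (median 6.61) in Q140 libraries, at -0.97 ± 0.17. Groups did not overlap at either. Prss16, which encodes a serine protease of the thymus and is not on the list, had 4 called peaks of 6 over 16.6 kb, all 6 negative with a median of -0.76.

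**Figure D1:**
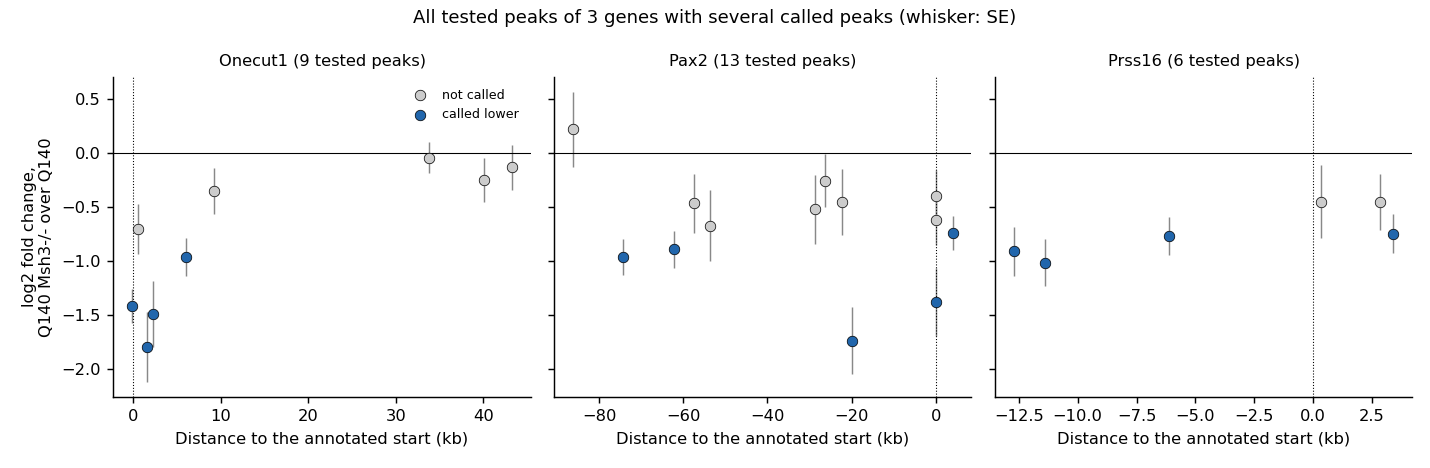
Log2 fold change of Q140 Msh3-/- over Q140 (y axis, whiskers give the SE) for every tested peak of Onecut1, Pax2 and Prss16 against the distance to the annotated start in kb (x axis, negative is upstream). Blue peaks passed the adjusted p of 0.05. All 9 Onecut1 peaks, 12 of 13 Pax2 peaks and all 6 Prss16 peaks lie below 0.

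Other regulators had fewer calls each. Tbx5, a T-box factor of heart and limb, had an intronic peak that ran from 4.75 to 12.8 CPM (median 7.42) in Q140 Msh3-/- and from 12.4 to 22.2 CPM (median 17.4) in Q140 libraries, with an overlap, at -1.15 ± 0.16 (log2 ± SE, edgeR adjusted p = 6.43e-05). Msc, a basic helix-loop-helix repressor, fell at a peak 203 kb from its start, which ran from 1.63 to 3.73 CPM (median 2.96) in Q140 Msh3-/- and from 5.90 to 8.97 CPM (median 6.67) in Q140 libraries, without overlap, at -1.30 ± 0.19. An intronic Pax6 peak (a regulator of eye and forebrain) gave -1.49 ± 0.26, and Hoxb13, Irx5, Gata4, Emx2, Gsx2, Nkx2-3, Nkx2-5, Hoxa7, Hoxc4, Onecut2 and Gbx2 had calls between -1.31 and -0.62. Cdkn2b, a CDK inhibitor gene and a classic Polycomb target, fell at the peak over its 5′ end, which ran from 3.53 to 5.97 CPM (median 4.86) in Q140 Msh3-/- and from 7.75 to 11.2 CPM (median 9.13) in Q140 libraries, at -0.92 ± 0.15. Among 346 peaks of Polycomb subunit genes 2 were called, or 0.578%, near the background of 0.529%, and both lay near Cbx8, a chromobox subunit of the PRC1 complex. The CpG-island peak 12.7 kb from it ran from 5.70 to 17.4 CPM (median 11.4) in Q140 Msh3-/- and from 23.6 to 35.7 CPM (median 31.1) in Q140 libraries, at -1.45 ± 0.16 (log2 ± SE, edgeR adjusted p = 1.49e-06). WT libraries ran from 4.87 to 11.1 CPM (median 6.81) at this peak, a range that the Q140 Msh3-/- libraries overlapped and in part exceeded.

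Called promoters were few, 10 lower and 6 higher. The lower ones were those of Onecut1, Pax2, Six6 (a homeobox gene of the eye), Shox2 with 2 peaks, Isl2 (a LIM-homeodomain factor of motor neurons), Crnde, Emx2os, Ptpn3 and Zfp217. Crnde, a long noncoding RNA, ran from 11.1 to 22.1 CPM (median 18.98) in Q140 Msh3-/- and from 24.7 to 36.7 CPM (median 33.6) in Q140 libraries, at -0.85 ± 0.13. The Shox2 peak with the lower p ran from 2.02 to 3.57 CPM (median 2.94) in Q140 Msh3-/- and from 5.31 to 7.74 CPM (median 5.79) in Q140 libraries, at -1.04 ± 0.20, and that of Emx2os, transcribed opposite Emx2, gave -0.70 ± 0.15. The Shox2 call ended without both libraries that stood apart, and the Emx2os call without Q140 Msh3-/- F2. Isl2 gave -1.05 ± 0.23 and lost its call without Q140 Msh3-/- M1 and without both libraries that stood apart. Windows of 300 bases around annotated starts from RefSeq (GRCm38.p6, 250 bases before to 50 after the start) overlapped the called peaks of 8 of the 9 lower genes. These 8 held 18 to 49 CG dinucleotides, median 24.5, beside a median of 23 in the 10090 windows that overlap any tested promoter peak and 7 in all 32851 windows. The windows of 3 regulators are printed to show this CG density, 5′ to 3′ with CG in capitals.
Onecut1, chr9:74861671-74861970, plus strand: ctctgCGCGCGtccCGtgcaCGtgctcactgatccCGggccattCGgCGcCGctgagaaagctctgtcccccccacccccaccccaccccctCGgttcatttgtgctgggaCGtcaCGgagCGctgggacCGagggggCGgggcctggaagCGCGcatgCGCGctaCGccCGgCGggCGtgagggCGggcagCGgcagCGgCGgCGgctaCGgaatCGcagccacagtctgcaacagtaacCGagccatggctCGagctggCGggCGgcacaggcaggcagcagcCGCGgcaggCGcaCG
Pax2, chr19:44756656-44756955, plus strand: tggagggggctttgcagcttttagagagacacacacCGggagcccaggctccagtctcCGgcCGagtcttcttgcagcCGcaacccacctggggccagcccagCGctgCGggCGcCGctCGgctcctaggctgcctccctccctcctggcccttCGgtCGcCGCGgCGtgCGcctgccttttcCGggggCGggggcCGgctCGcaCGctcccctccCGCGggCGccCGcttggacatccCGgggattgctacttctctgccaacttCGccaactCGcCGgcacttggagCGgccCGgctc
Six6, chr12:72939632-72939931, plus strand: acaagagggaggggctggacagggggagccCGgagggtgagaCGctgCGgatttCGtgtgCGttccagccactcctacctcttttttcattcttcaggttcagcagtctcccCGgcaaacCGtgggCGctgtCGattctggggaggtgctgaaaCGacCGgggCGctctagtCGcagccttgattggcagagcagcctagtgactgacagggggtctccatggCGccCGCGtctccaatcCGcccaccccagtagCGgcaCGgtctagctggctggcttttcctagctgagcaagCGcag

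Of 6 motifs searched on both strands, each counted on its own where letters overlap, the GC box GGGCGG was in 7 of the 8 lower windows (87.5%), beside 67.0% of windows at tested promoter peaks and 35.7% of all windows. The CCAAT box was in 5 of 8, beside 38.3% of windows at tested promoter peaks. The homeodomain core TAATTA was in 1, beside 1.87%. The E-box CAGCTG was in 1, beside 14.7%. The cAMP response element TGACGTCA was in 1, beside 3.26%. The TATA box TATAAA was in 0, beside 5.44%. With 8 windows these shares are a description.

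Large losses outside the list lay near genes of varied kinds. The strongest by p, in an intron annotated to Gm26688 (chromosome 13, 40722641 to 40723512, a CpG island at -51.6 Mb from Msh3), ran from 5.21 to 8.14 CPM (median 6.10) in Q140 Msh3-/- and from 14.8 to 22.4 CPM (median 19.3) in Q140 libraries. The genotypes did not overlap, and the difference was -1.58 ± 0.13 (log2 ± SE, edgeR adjusted p = 1.56e-10). Msh3-/- libraries held a median of 8.37 CPM and WT libraries 9.45 CPM. A peak 404 kb from Pcdh20, a protocadherin gene, ran from 1.49 to 3.85 CPM (median 2.48) in Q140 Msh3-/- and from 6.26 to 7.66 CPM (median 6.38) in Q140 libraries, at -1.41 ± 0.19. Peaks near Edem1 (a factor of protein degradation from the endoplasmic reticulum) and Slit2 (an axon guidance ligand) fell by 1.29 and 1.25 on the log2 scale without overlap. Those near Gm20268 and Stk31 fell by 1.31 and 1.21 with overlapping libraries, and the call at Stk31 ended without both libraries that stood apart.

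Peaks that rose in Q140 Msh3-/- libraries lay mostly between genes and in introns. An intronic peak of Pphln1, which encodes periphilin, a member of a silencing complex (chromosome 15, 93443416 to 93444131), ran from 10.98 to 17.6 CPM (median 12.9) in Q140 Msh3-/- and from 4.53 to 5.56 CPM (median 5.25) in Q140 libraries. Its difference was 1.37 ± 0.15 (log2 ± SE, edgeR adjusted p = 3.63e-07), and WT libraries, which overlapped the Q140 Msh3-/- ones, ran from 12.8 to 23.9 CPM (median 19.7). Serpina3g, of the serpin family of protease inhibitors, had a promoter peak that ran from 3.65 to 6.57 CPM (median 5.30) in Q140 Msh3-/- and from 1.29 to 2.61 CPM (median 2.05) in Q140 libraries, at 1.31 ± 0.19 (log2 ± SE, edgeR adjusted p = 0.000121). WT libraries ran from 7.30 to 8.91 CPM (median 7.96), all above every Q140 Msh3-/- library. Cdh9 and Cdh11, both adhesion molecules of the cadherin family, rose at distal peaks by 1.42 ± 0.22 and 1.34 ± 0.20. The Cdh9 peak ran from 10.4 to 22.1 CPM (median 18.8) in Q140 Msh3-/- and from 3.88 to 8.92 CPM (median 6.05) in Q140 libraries. A peak near Nup160, a nuclear pore gene, gave 1.44 ± 0.21, and 3 peaks in 18.1 kb near Nup35, of another nuclear pore protein, all rose, the largest at 1.21 ± 0.17. The call near B230110C06Rik, at 1.43 ± 0.34 (log2 ± SE, edgeR adjusted p = 0.0478), ended in 12 of 22 alternatives.

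**Figure D2:**
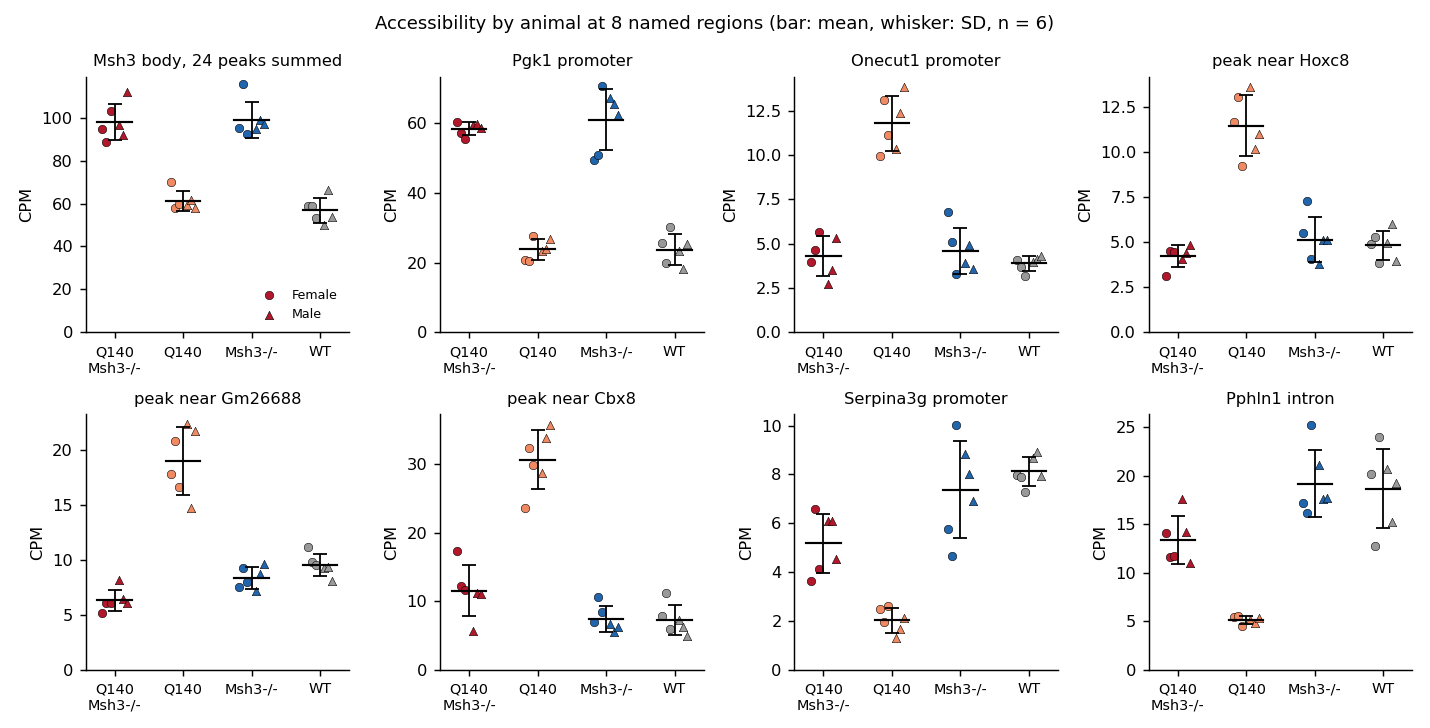
Accessibility in CPM (y axis) per library at 8 regions, for Q140 Msh3-/-, Q140, Msh3-/- and WT libraries from left to right (circles female, triangles male; bar and whisker give mean and SD, n = 6). At Msh3 and Pgk1 both Msh3-/- genotypes are high, while at the Onecut1, Hoxc8, Gm26688 and Cbx8 peaks Q140 stands above the other 3 genotypes, and at Serpina3g and Pphln1 it stands below them.

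Identity genes of the projection neuron had few calls. Of 934 peaks at 40 identity genes 4 rose and 0 fell, or 0.428% against 0.529% of all tested peaks, a share near the background. The 4 were assigned to Rarb (a retinoic acid receptor of the striatum), Itpr1 (a calcium release channel), Arpp21 (a cAMP-regulated phosphoprotein) and Camk4 (a calcium-dependent kinase). The Itpr1 peak ran from 13.7 to 19.9 CPM (median 16.7) in Q140 Msh3-/- and from 7.56 to 13.4 CPM (median 8.997) in Q140 libraries, at 0.76 ± 0.17, and the other 3 differed by 0.54 to 0.68. All 4 calls ended without Q140 M2, without Q140 Msh3-/- F1, without Q140 Msh3-/- M2, and without both libraries that stood apart, and each ended without further single libraries. The median over the 934 peaks was 0.07, and 593 had a positive sign. Markers of direct-pathway neurons had 1 call of 284 peaks (0.352%) and those of indirect-pathway neurons 0 of 176, counts too few to set the pathways apart. The 1 call, an intronic Eya1 peak, ran from 6.47 to 11.8 CPM (median 10.8) in Q140 Msh3-/- and from 3.66 to 5.42 CPM (median 4.61) in Q140 libraries, at 1.03 ± 0.17. Matrix markers had 2 calls of 329 peaks (0.608%), with 176 peaks of negative sign, and striosome markers 1 of 227 (0.441%), both near the background. At Rgs12, a brake on G protein signalling and a matrix marker, an intronic peak ran from 11.5 to 17.1 CPM (median 14.5) in Q140 Msh3-/- and from 5.78 to 8.36 CPM (median 6.90) in Q140 libraries, at 1.00 ± 0.15. This peak lies close to the knock-in gene, since it starts at 34979036 on chromosome 5 and Htt ends at 34912534. The part of that position in the call was not tested.

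The synaptic, signalling, chaperone and activity-regulated lists given here had 0.397% to 0.839% of their peaks called. Over all tested peaks 0.529% were called, 0.31% higher and 0.219% lower. No test was run on these shares. Postsynaptic scaffold and adhesion genes had 12 peaks higher (0.624%) and 2 lower (0.104%) of 1922, or 0.728% called, with 1 call within 20 Mb of Msh3. Among the higher ones were Nlgn1 (neuroligin) at 0.90 ± 0.18 and Ptprd (a receptor phosphatase) at 0.71 ± 0.15. The Nlgn1 call ended without both libraries that stood apart, and the Ptprd call without Q140 Msh3-/- M2. Glutamate receptors had 3 higher and 1 lower of 713 (0.561%), among them 1 in each direction near Grik2. Potassium channels had 3 higher and 2 lower of 1258 (0.397%), and chaperones 4 higher and 0 lower of 477 (0.839%). Genes of cAMP and dopamine signalling had 1 higher, near Pde7b, and 3 lower of 917 (0.436%). Of these 4, the calls at Pde7b, at Adcy2 (an adenylyl cyclase) and at 1 of the 2 Pde1a peaks ended in 7, 8 and 10 of 22 alternatives, among them single libraries left out. Both Pde1a peaks were lower (Pde1a is a calmodulin-dependent phosphodiesterase), and the more stable of them ran from 0.407 to 1.22 CPM (median 0.897) in Q140 Msh3-/- and from 2.32 to 3.54 CPM (median 2.77) in Q140 libraries, at -1.67 ± 0.29. Among activity-regulated genes an intronic Bdnf peak (a neurotrophin) was lower at -0.75 ± 0.16. Peaks near Egr4 and Homer1 were higher, the Homer1 peak at 0.896 Mb from Msh3 and so within the 20 Mb around it. All 3 calls ended without both libraries that stood apart, and without some single ones: Q140 Msh3-/- F2 or M1 for Bdnf, M1 or M2 of that genotype for Egr4, and Q140 M3 or Q140 Msh3-/- F1 or F2 for Homer1.

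**Figure D3:**
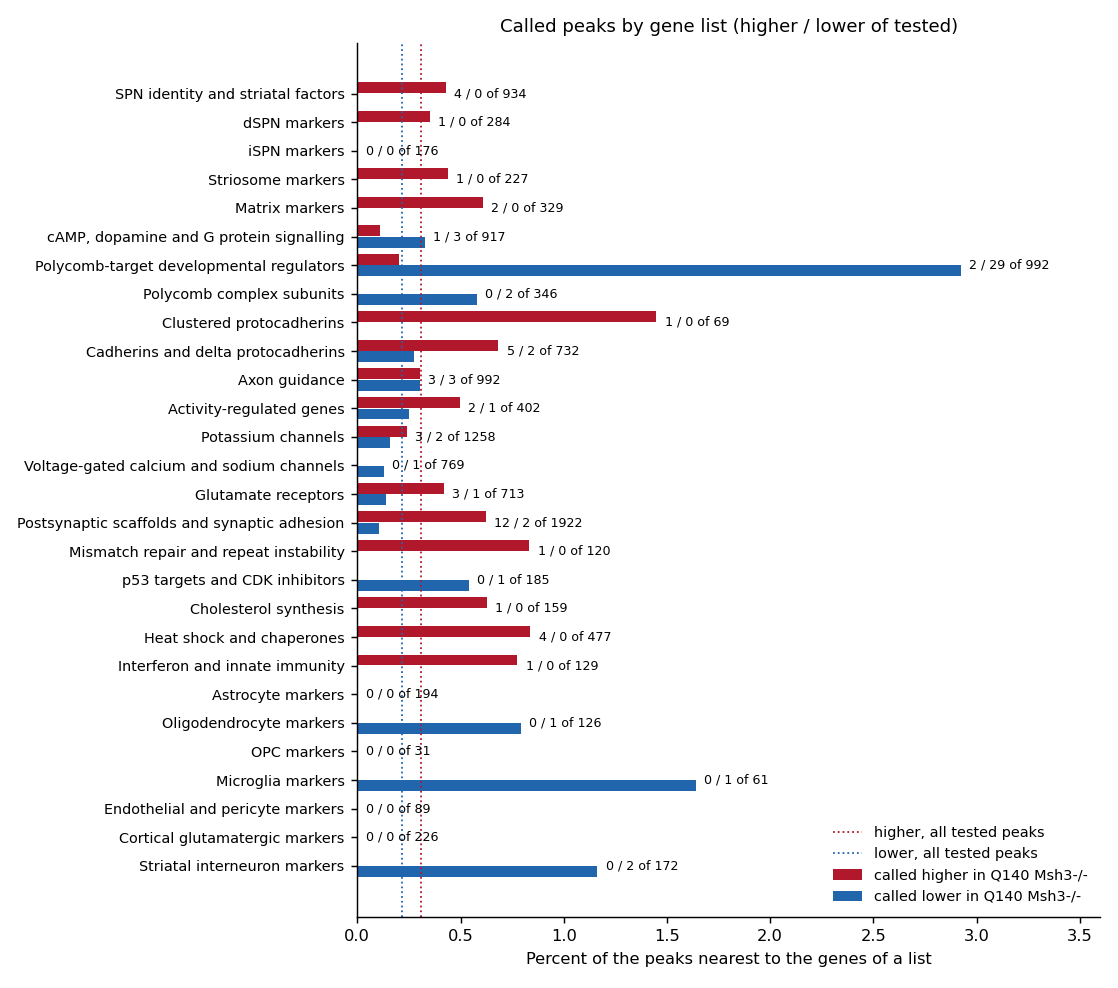
Percent of the tested peaks of each gene list (x axis; peaks are assigned to the nearest gene) called higher (red) or lower (blue) in Q140 Msh3-/- than in Q140, with the counts beside each bar and dotted lines at the shares of all tested peaks (0.31% higher, 0.219% lower). The lower bar of the developmental regulators is the longest, from 29 of 992 peaks, and in lists of few peaks 1 or 2 calls make a long bar.

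Markers of other cells were looked at over promoters. The 7 of 17 astrocyte markers with a promoter peak summed to 49.8 to 64.9 CPM in Q140 Msh3-/- libraries and 56.2 to 64.2 CPM in Q140 libraries, and 8 of 16 oligodendrocyte markers to 27.7 to 44.3 CPM in Q140 Msh3-/- and 30.3 to 37.9 CPM in Q140. Endothelial and pericyte markers, 4 of 17, summed to 5.56 to 8.96 CPM in Q140 Msh3-/- and 7.45 to 10.99 CPM in Q140, with a median of -0.34 over their 6 promoter peaks, and interneuron markers, 10 of 19, to 26.9 to 42.0 CPM (median 32.7) in Q140 Msh3-/- and 29.7 to 43.0 CPM (median 39.6) in Q140, with a median of -0.19 over their 13 promoter peaks. Microglial markers had 1 promoter peak of 17 genes, at 2.04 to 4.73 CPM in Q140 Msh3-/- and 2.23 to 5.43 CPM in Q140. Genotypes overlapped in each sum, and the part of these cells in the calls was not tested. Astrocyte, precursor, endothelial and cortical neuron lists held 0 called peaks of 194, 31, 89 and 226. Over all tested peaks 0.529% were called, 0.219% lower, so the counts of all these lists are too few to set them apart. Interneuron markers held 2 lower of 172 (1.16%), near Kit and Gbx2, and oligodendrocyte markers 1 lower of 126 (0.794%), in Mbp, at -0.56 ± 0.14. The Mbp call ended in 11 of 22 alternatives, 9 of which left out 1 library, and the Gbx2 call ended without Q140 Msh3-/- F2, without M1 of that genotype and without both libraries that stood apart. Microglial markers held 1 lower of 61 (1.64%), a peak within 20 Mb of Msh3.

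Calls were denser around Msh3. Within 20 Mb of Msh3 on chromosome 13, 52 of 2027 tested peaks were called (2.57%), 26 higher and 26 lower, against 721, or 0.500%, of the peaks elsewhere. Calls crowded from 5 Mb below to 10 Mb above the start of Msh3. The first 5 Mb below, which hold the gene itself, had 11 higher and 1 lower of 182 peaks. Of these 11 higher peaks, 9 lay inside Msh3. The first 5 Mb above had 8 higher and 11 lower of 433, and the next 5 Mb 3 higher and 10 lower of 365. From 10 to 15 Mb above, 0 of 229 were called. Without Q140 M2 the 52 calls were 34, 15 higher and 19 lower, the 26 lower were 17 without Q140 F2 or Q140 Msh3-/- M2, and without both libraries that stood apart 10 higher and 14 lower were called. The sources used here do not give the strain of the DNA that flanks the targeted allele, and its part in these calls was not tested.

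**Figure D4:**
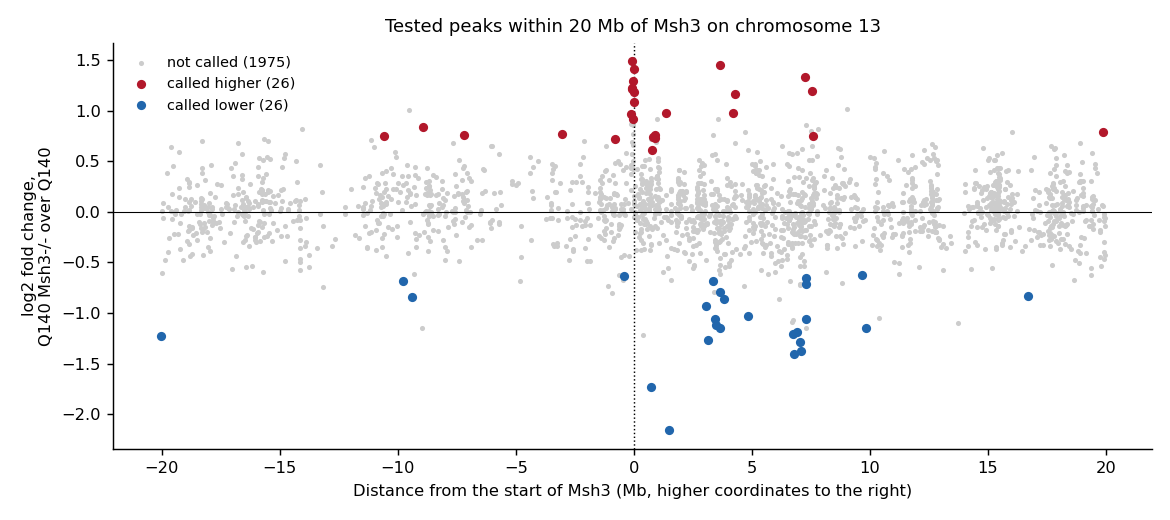
Log2 fold change of Q140 Msh3-/- over Q140 (y axis) for the 2027 tested peaks within 20 Mb of Msh3, by distance from its start in Mb (x axis). Red (26) and blue (26) peaks passed the adjusted p of 0.05, and the column of red peaks at 0 is the body of Msh3.

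Msh3 itself was more open along its length. The gene (chromosome 13, 92211878 to 92355004) held 25 tested peaks, of which 24 had a positive sign at a median of 0.77 over the 25, and 9 were called higher. Its promoter was the exception, at -0.05 ± 0.10 (SE, edgeR adjusted p = 0.954). The other 24 peaks summed to 88.9 to 112 CPM with a median of 95.6 in Q140 Msh3-/- libraries and 57.8 to 69.8 CPM with a median of 59.6 in Q140 libraries. In Msh3-/- libraries they summed to 92.5 to 116 CPM and in WT libraries to 50.2 to 66.5 CPM, so every library labelled Msh3-/- lay above every library with Msh3. Accessibility measures neither the allele nor the transcript. Without Q140 M2 or Q140 Msh3-/- M3 the 9 called peaks became 5, and likewise without both libraries that stood apart.

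Near Msh3, changes went in both directions. In Sv2c, which encodes a glycoprotein of synaptic vesicles, an intronic peak 3.67 Mb from Msh3 ran from 21.03 to 26.4 CPM (median 22.04) in Q140 Msh3-/- and from 7.90 to 9.45 CPM (median 8.33) in Q140 libraries, at 1.45 ± 0.13 (log2 ± SE, edgeR adjusted p = 9.63e-10). Next to it, an intronic peak of Iqgap2, a cytoskeletal scaffold, ran from 10.04 to 13.6 CPM (median 13.02) in Q140 Msh3-/- and from 22.2 to 31.6 CPM (median 28.3) in Q140 libraries, at -1.14 ± 0.12. A peak at Gm4814 fell, and ran from 1.22 to 3.13 CPM (median 1.92) in Q140 Msh3-/- libraries and from 5.03 to 7.64 CPM (median 6.34) in Q140 libraries, at -1.73 ± 0.18. The largest fold change of all 773, -2.16 ± 0.38 near Mir5624, was on a peak of at most 2.15 CPM in Q140 libraries.

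Outside the 20 Mb around Msh3, Pgk1 held the single peak called in both backgrounds. Pgk1 encodes phosphoglycerate kinase, an enzyme of glycolysis, and its promoter peak (chromosome X, 106186569 to 106187398) ran from 55.4 to 60.3 CPM (median 59.03) in Q140 Msh3-/- and from 20.5 to 27.8 CPM (median 23.6) in Q140 libraries, at 1.29 ± 0.12 (log2 ± SE, edgeR adjusted p = 9.63e-10). Msh3-/- libraries ran from 49.4 to 70.6 CPM (median 64.1) and WT libraries from 18.1 to 30.3 CPM (median 24.3). A peak at the 3′ end of the gene, which the table assigns to Taf9b (106203586 to 106204035), rose as well, and ran from 3.17 to 4.30 CPM (median 3.78) in Q140 Msh3-/- and from 0.347 to 2.84 CPM (median 1.42) in Q140 libraries, at 1.42 ± 0.26. The intronic peak between them differed by 0.14 ± 0.27 and one 15.8 kb upstream by 0.25 ± 0.21, neither past the threshold. Whether all reads of the 2 end peaks come from the X locus was not tested. The promoter window, shown because the called promoter peak covers it, reads 5′ to 3′ with CG in capitals as follows.
Pgk1, chrX:106186850-106187149, plus strand: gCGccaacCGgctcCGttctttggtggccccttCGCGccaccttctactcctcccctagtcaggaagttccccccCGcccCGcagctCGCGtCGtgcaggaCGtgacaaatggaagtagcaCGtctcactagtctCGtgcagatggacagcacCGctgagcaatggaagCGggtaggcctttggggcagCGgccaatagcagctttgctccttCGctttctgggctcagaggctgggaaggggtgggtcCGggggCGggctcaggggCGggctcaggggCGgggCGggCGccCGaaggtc

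Calls on X as a whole were 14 higher, Pgk1 included, and 0 lower of 2976 peaks, or 0.470%, near the 0.529% of all tested peaks, and they moved with the libraries kept. Higher calls were 8, 5, 4 and 8 without Q140 F2, M1, M2 or M3, and 6, 8, 21, 4 and 5 without Q140 Msh3-/- F1, F2, F3, M1 or M2. Without both libraries that stood apart 2 were higher and 0 lower. Scaling by total counts gave 11 higher and 2 lower, and limma-voom 10 and 3. At Htt, the promoter peak differed by 0.03 ± 0.11 (edgeR adjusted p = 0.977).

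Without the expanded allele, loss of Msh3 changed 19 peaks, 0.013% of those tested, and 18 lay within 20 Mb of Msh3. That comparison of Msh3-/- with WT uses no library of the Q140 comparison. Of the 19, 16 were also among the 773, which is 84.2% of the first list and 2.07% of the second, and all 16 had the same direction. Away from Msh3, the 427 higher peaks of the Q140 comparison had a median of -0.02 in Msh3-/- against WT, and 11 reached an unadjusted p under 0.05. The 294 lower peaks there had a median of 0.08, with 24 at that p. Within 20 Mb the medians were 0.66 for the 26 higher and -0.76 for the 26 lower peaks, with 18 and 17 at that p. Over all tested peaks, 4875 of 146155 reached it.

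**Figure D5:**
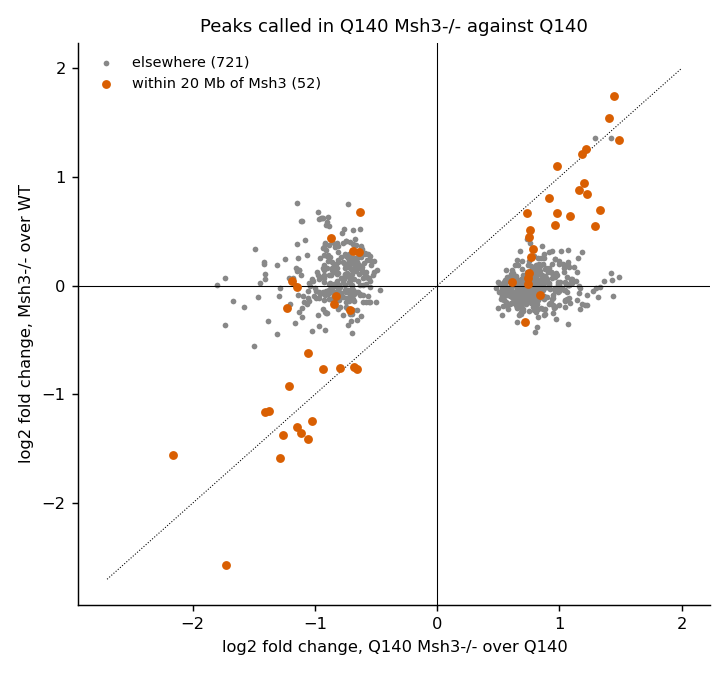
The 773 called peaks by their log2 fold change in Q140 Msh3-/- over Q140 (x axis) and in Msh3-/- over WT (y axis). Orange peaks lie within 20 Mb of Msh3 (52) and many follow the dotted line of equal change, while the grey peaks elsewhere (721) gather around 0 on the y axis, apart from both Pgk1 peaks near 1.36.

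The difference between both Msh3 effects was tested as an interaction, the effect in Q140 animals minus that without the expanded allele, with all libraries kept. It was past the threshold at 33 peaks, 0.0226% of those tested, 14 positive and 19 negative, of which 31 were also among the 773. At the Onecut1 promoter the interaction was -1.63 (edgeR adjusted p = 0.0016), near Hoxc8 -1.47 (0.00192), at Gm26688 -1.39 (0.000418) and near Cbx8 -1.48 (0.0159). At Pphln1 it was 1.32 (0.00222), at Serpina3g 1.42 (0.0159) and near Nup160 1.53 (0.0159). Of the 33, 1 lay within 20 Mb of Msh3. DESeq2 counted 99 such peaks and scaling by total counts 61.

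Both Q140 genotypes can be set beside WT at the called peaks. The 453 higher peaks had a median of -0.29 in Q140 Msh3-/- against WT and -1.05 in Q140 against WT, and the 320 lower peaks one of 0.29 in Q140 Msh3-/- against WT and 1.14 in Q140 against WT. Those values share the Q140 Msh3-/- and Q140 libraries with the comparison that chose the peaks, so they are a description with no test.

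Both sexes had the same sign at all 773 peaks, which the pooled call in part fixes. At an unadjusted p under 0.05, 424 of the higher peaks passed in females and 446 in males, and 313 and 305 of the lower ones. In a fit of genotype by sex over all 24 libraries, the contrast within females gave 21 called peaks and that within males 31. The difference of the Msh3 effect between the sexes passed at 0 peaks with edgeR, with 3870 at an unadjusted p under 0.05, and also at 0 when the fit held just the 12 libraries.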

How the data were processed

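Per the labels, nuclei from frozen striatum were stained for NeuN, sorted and tagged with the Nextera transposase. The submitters' processing notes name the build GRCm38 and the tools featureCounts, MACS2, Picard, SAMtools and BWA; the versions were not given in the sources used here. The authors deposited raw counts over 147020 peaks shared by all 24 libraries, with an annotation of each peak to the nearest gene; 0 columns of other samples were present.

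Peaks with enough counts (edgeR filterByExpr, minimum count 10) were kept, leaving 146155. Libraries were scaled by TMM and fitted with edgeR 4.0.16 (quasi-likelihood, robust) with genotype and sex as terms over all 24 libraries, which share 1 estimate of the spread. Benjamini-Hochberg adjustment ran over all tested peaks at 0.05. The standard error is the log2 fold change divided by the square root of F, and CPM uses the scaled library sizes. The fit was tested on simulated counts. Replicates are separate libraries by label, and p-values measure the spread between them. Pairs of libraries of 1 genotype differed by a chi-square of 1.34 to 8.94 per peak over 30 pairs, so none was merged.

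Named peaks are the 15 largest fold changes per direction among called peaks (mean of at least 2 CPM, same direction in both sexes, 1 peak per gene), up to 4 called peaks per gene list and 5 promoters per direction of smallest p, peaks in Msh3, called peaks within 20 Mb of it, the Htt promoter, Pgk1 peaks, genes with 3 or more called peaks and the calls of Msh3-/- against WT. Other peaks were chosen after their values were seen. Members and lists were chosen with earlier results of these data known. Alternatives were other scalings, no filter, DESeq2 1.42.0, limma-voom 3.58.1, no sex term, 12 libraries alone, a replicate block and each library left out. Python 3.11.15 and pandas 2.3.3 made the tables. Some called peaks are not reported here.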

Additional observations from a re-analysis of the deposited data

Results flagged for a closer look

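The 82 called peaks named for the largest fold changes, from the gene lists or as promoters gave 164 genotype groups. Single libraries lay far from the other 5 of their genotype (Dixon's test) at 10 of the 164, and chance gives about 1 in 20. In Q140 Msh3-/- libraries these were 3.37 CPM in M2 near Gm20268 (the other 5 ran from 1.43 to 2.04), 6.97 in F3 at Gm36536 (8.84 to 9.62), 6.80 in F3 at Hdac2 (9.96 to 11.1), 15.3 in M3 at Mbp (9.23 to 10.8), 11.5 in M2 at the Lce3f promoter (7.13 to 8.602) and 2.94 in M3 at Stk31 (1.04 to 1.74). In Q140 libraries they were 5.56 CPM in F2 at Gm20740 (2.48 to 3.45), 12.9 in F3 near Edem1 (6.50 to 8.81), 3.66 in M2 at Lrrtm4 (5.05 to 5.56) and 16.2 in F3 at Efnb2 (9.19 to 11.3).

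Among the same 82 named peaks, 11 had an Msh3 effect in Q140 animals that differed from the effect without the expanded allele by the interaction test of edgeR. The interaction on the log2 scale was -1.63 at Onecut1, -1.58 at Slitrk6, -1.48 near Cbx8, -1.47 near Hoxc8, -1.39 at Gm26688 and -1.29 at Tbx5. It was 1.53 near Nup160, 1.42 at Serpina3g, 1.35 near Cdh11, 1.33 at Gm36536 and 1.32 at Pphln1. Outside the 82, named peaks near Nup35, Rps29 and Pik3r1 also passed, at 1.38, -1.90 and -1.31.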

How the results depend on the processing

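Alternatives were followed peak by peak at 82 called peaks, those named for the largest fold changes, from the gene lists or as promoters. The rest of the 173 named peaks were not followed one by one. None of the 82 changed direction under the alternatives run for it, 20 to 22 each. Of the 82, 47 kept their call in every one run, 35 lost it in at least 1, and 4 of these lost it only when 1 library was left out. With each library left out the 773 changed peaks ranged from 378 to 951, the 453 higher from 183 to 715 and the 320 lower from 143 to 470. Without both Q140 F2 and Q140 Msh3-/- M1 they were 199, 127 and 72. Other fits gave 645 (without peaks near Msh3 and Htt) to 982 (12 libraries alone) called peaks. The interaction gave 99 peaks with DESeq2, 63 positive and 36 negative, and 61 with scaling by total counts, 30 and 31, against 33, 14 and 19; the cause was not tested.

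A fit with a replicate block, pairing libraries by sex and number, called 918 peaks, 554 higher and 364 lower, and kept 741 of the 773. The numbers do not pair the libraries, since the deviations of same-numbered libraries correlated at -0.27 to 0.27 over 6 pairs, and not every library correlated best with its own number. At a median of 29 counts per peak and library, and a median SE of 0.20 over all tested peaks, small differences were not detectable.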

Other observations

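By repeat annotation, 18 higher and 4 lower peaks of 4429 lay over SINE elements (0.497%), near the 0.529% of all tested peaks. Those over LINE elements other than L1 were called higher 10 and lower 3 times of 928 (1.40%), and those over DNA transposons 7 times each way of 1048 (1.34%). On chromosomes, chromosome 13 held 43 higher and 38 lower of 6405 peaks (1.26%), while chromosomes 9, 8 and 19 held 11, 14 and 4 higher calls and 22, 23 and 11 lower ones in that order, of 7577, 7535 and 3404 peaks (0.436%, 0.491% and 0.441%). No test was run on these counts.

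The Crebzf promoter peak took 8.13% of all counts, or 648480, in Q140 Msh3-/- M1. Over the 12 libraries it differed by 1.17 ± 0.52 on the log2 scale (SE, edgeR adjusted p = 0.46).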
